A study of Rattus norvegicus with 9 samples.

Results

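Notch1, Notch2, Notch3, Dll1, Dll3, Jag1, Hes1, Hes5, Hey1 and Hey2, 10 genes that encode receptors, ligands and target genes of the Notch pathway, were read from a count table of 23953 genes by their symbols, and 10 of 10 were found. The table holds 9 RNA-seq libraries of neural stem cells (NSCs) that the labels describe as taken from rat spinal cord and that the study isolated from neonatal rats. All NSCs were cultured in the same differentiation medium, which contained growth factor and a little serum. The Con group received nothing else, the Exo group received exosomes (BMSC-Exos) from bone marrow mesenchymal stem cells that, per the study's methods, carried an empty lentiviral vector, and the pLV-Exo-Wnt5a group received exosomes from BMSCs that overexpressed Wnt5a through a lentiviral vector. Each group had 3 libraries, all with the same batch label. The NSCs were not modified themselves, and a vehicle for the exosomes is not described for the Con group. The study's methods mention replicates of each group and multi-well plates, but not how the libraries came from them. Whether the libraries of a group came from separate cultures is thus not stated. The p-values therefore measure only the spread between libraries, which may be technical.

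Notch receptors are membrane proteins that are cleaved when a ligand on a neighbouring cell binds them. The released intracellular domain enters the nucleus, joins the DNA-binding protein Rbpj and switches on genes of the Hes and Hey families. These encode repressors that hold back proneural genes such as Neurod1, and in the developing nervous system the pathway keeps progenitors undifferentiated and later favours astrocytes over neurons.

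The 250 bases before the transcription start of 3 target genes are printed to show where the core of the Rbpj binding motif lies in genes that are known to answer to Notch. The sequences are those of the rat assembly GRCr8 from RefSeq, matched by symbol, and the capitals mark the letters TGGGAA or, for a site on the opposite strand, TTCCCA.
Hes1, chr11:84213046-84213295, strand -: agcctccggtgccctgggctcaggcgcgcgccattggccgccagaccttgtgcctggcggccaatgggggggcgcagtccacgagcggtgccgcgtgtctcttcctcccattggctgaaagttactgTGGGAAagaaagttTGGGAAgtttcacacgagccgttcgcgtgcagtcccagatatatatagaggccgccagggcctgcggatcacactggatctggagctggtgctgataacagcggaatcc
Hes5, chr5:170804327-170804576, strand +: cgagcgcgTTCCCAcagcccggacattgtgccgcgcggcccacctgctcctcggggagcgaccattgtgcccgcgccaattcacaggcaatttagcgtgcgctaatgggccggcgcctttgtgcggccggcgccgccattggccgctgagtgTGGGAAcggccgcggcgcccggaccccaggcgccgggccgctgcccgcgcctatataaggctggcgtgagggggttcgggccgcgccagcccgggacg
Hey2, chr1:28640850-28641099, strand +: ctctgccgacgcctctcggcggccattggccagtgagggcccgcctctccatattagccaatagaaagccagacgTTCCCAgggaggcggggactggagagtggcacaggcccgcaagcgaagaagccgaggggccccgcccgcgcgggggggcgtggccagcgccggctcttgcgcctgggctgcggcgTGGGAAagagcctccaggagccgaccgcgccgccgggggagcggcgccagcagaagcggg

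Hes1 carried its sites 123 and 109 bases before the start, both on the strand of the gene. Hes5 had a site 98 bases before the start and a reversed one at 242, and Hey2 had them at 60 and, reversed, at 175. Promoter sequences were matched for 9 of the 10 genes. At least 2 sites were found in 4 of these 9 (Dll1, Hes1, Hes5 and Hey2) and no site in the other 5, against 2.71% of 33469 promoter windows of the same length with at least 2 sites and 22.1% with at least 1. A match is a run of letters and not a measured binding site.

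The libraries held between 32765138 and 40427647 counts. Levels are given as CPM, counts scaled to a common library total with TMM factors, which adjust for differences in library composition; a count of 3, the limit that a count of 0 allows, lay between 0.0727 and 0.0913 CPM and covers counting error only. CPM is not divided by gene length, so levels are compared between groups of one gene and not between genes. Within groups, libraries were further apart than counting noise allows (chi-square per degree of freedom from 7.33 for Con replicates 2 and 3 to 48.4 for Con replicates 1 and 3), and Con replicate 1 had the lowest TMM factor (0.965, against 0.996 to 1.02 in the others). Of the listed spinal cord genes, Hoxa7, Hoxc6 and Hoxc9 were in the table, and their summed level was at most 0.0517 CPM in any library, under the limit of 3 counts. The measured Hox genes thus went against the spinal cord label. The 8 neural stem cell markers, with Sox2 and Nes among them, passed the filter on low counts and summed to between 2773 and 4149 CPM. Neuron markers summed to between 2723 and 3477 CPM and astrocyte markers to between 4879 and 6911 CPM. Oligodendrocyte lineage markers summed to 2159 to 2381 CPM in Con, 1996 to 2201 in Exo and 1934 to 2150 in pLV-Exo-Wnt5a. In such bulk libraries fewer cells of a type and less RNA per cell cannot be told apart.

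Notch3, a receptor known from neural progenitors and from the mural cells of blood vessels, had the largest fitted difference of the receptors between the Exo group and each other group. It was measured at 249, 195 and 203 CPM in the Con libraries, 168, 140.2 and 163 CPM in the Exo libraries and 194, 180.0 and 208 CPM in the pLV-Exo-Wnt5a libraries. The Con and pLV-Exo-Wnt5a libraries overlapped, and every Exo library lay below all libraries of both other groups. The mean was 216 ± 29.3 CPM in Con, 157 ± 14.96 CPM in Exo and 194 ± 14.04 CPM in pLV-Exo-Wnt5a (SD, n = 3 each). Exo against Con gave a log2FC of -0.47 (standard error 0.11, 95% interval -0.71 to -0.22, Q = 0.265), where Q is the p-value of edgeR's quasi-likelihood test after Benjamini-Hochberg adjustment over all genes tested. pLV-Exo-Wnt5a against Exo gave a log2FC of 0.32 (standard error 0.08, 95% interval 0.15 to 0.49, Q = 0.118). Neither passed Q of 0.05 in edgeR with the filter on low counts and all 6 libraries. In edgeR without that filter both passed, and the first also passed when Con replicate 3 was left out (Q = 0.0452). Both passed with DESeq2 on the same 6 libraries (adjusted p = 0.0296 and 0.0239), and with DESeq2 on all 9 libraries the first passed (adjusted p = 0.0103) and the second did not (adjusted p = 0.269). Both comparisons share the Exo libraries. Without Con replicate 1 the log2FC of Exo against Con was -0.35 (Q = 0.177). pLV-Exo-Wnt5a against Con gave -0.16 (95% interval -0.40 to 0.08), and this value was -0.033 without Con replicate 1 and -0.10 when pLV-Exo-Wnt5a replicate 2 was left out.

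Markers of neural stem cells and mural cells, which use Notch3, and of microglia and astrocytes were read beside it. The 8 neural stem cell markers summed to 3243 to 3410 CPM in Con, 2773 to 3301 in Exo and 3172 to 4149 in pLV-Exo-Wnt5a, and Vim gave the largest part of this sum. Between Exo and Con 2 were higher and 6 lower, 2 of the lower ones at an unadjusted p under 0.05 (6.01% of all genes). Sox2 did not share the low sum in Exo, at 404 to 510 CPM in Con and 468 to 687 in Exo. Between pLV-Exo-Wnt5a and Exo 7 of the 8 markers were higher, 2 at an unadjusted p under 0.05 (5.07% of all genes) and 1, Vim, at Q under 0.05. Vim, a filament protein of progenitors and astrocytes, had 1573 to 1976 CPM in Con, 1232 to 1486 in Exo and 1698 to 2359 in pLV-Exo-Wnt5a, so its Exo libraries lay below all others, as for Notch3, and it rose in pLV-Exo-Wnt5a against Exo (log2FC 0.62, Q = 0.0389). The summed level of the 8 mural and fibroblast markers was 21.7 to 29.0 CPM in Con, 17.8 to 20.5 in Exo and 20.9 to 21.4 in pLV-Exo-Wnt5a, of which Pdgfrb gave 9.87 to 20.1 CPM over the 9 libraries. Without Pdgfrb the other 7 summed to 7.06 to 8.98 CPM in Con, 7.01 to 10.6 in Exo and 9.19 to 11.2 in pLV-Exo-Wnt5a. Of the 8 markers 5 were tested, 3 higher and 2 lower in Exo than in Con. Pdgfrb, a receptor of mural cells, was measured at 20.1, 14.1 and 17.4 CPM in the Con libraries, 9.87, 10.7 and 10.5 CPM in the Exo libraries and 10.1, 11.7 and 10.7 CPM in the pLV-Exo-Wnt5a libraries, and all libraries of both exosome groups lay below all Con libraries. The pericyte markers Rgs5 and Kcnj8 were at most 0.297 and 0.194 CPM, and Kcnj8 was at 0 in 8 of 9 libraries. The 8 microglia markers were lowest in Exo. They summed to 7.71 to 9.71 CPM in Con, 3.00 to 4.03 in Exo and 7.41 to 9.93 in pLV-Exo-Wnt5a. P2ry12 and Ptprc were each at 0 in 3 of 9 libraries and Tmem119 in 1, while Cx3cr1, Csf1r, Aif1, Itgam and C1qa had counts in all 9. These 5 were tested, and 5 of 5 were lower in Exo than in Con (median log2FC -1.43, 3 at an unadjusted p under 0.05, where 6.01% of all genes were lower) and 5 of 5 higher in pLV-Exo-Wnt5a than in Exo (median 1.02, 3 at that p, where 5.07% of all genes were higher), with none at Q under 0.05. The part of these lists in the values of Notch3 was not tested. The astrocyte markers had 4988 to 6027 CPM in Con, 4879 to 5006 in Exo and 6579 to 6911 in pLV-Exo-Wnt5a. Gfap gave 2262 to 3055 CPM of this sum in Con, 2205 to 2278 in Exo and 3970 to 4082 in pLV-Exo-Wnt5a, and it rose in pLV-Exo-Wnt5a against Exo (log2FC 0.86, Q = 3.36e-05). Over the 8 markers in that comparison 3 were higher and 5 lower, with a median of -0.16, and 3 of the lower ones had an unadjusted p under 0.05 (Slc1a3, Slc1a2 and Gja1), so the list did not go one way.

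Notch2, a receptor of progenitors and glia, was measured at 128, 117 and 112 CPM in the Con libraries, 109, 91.5 and 91.9 CPM in the Exo libraries and 106, 103 and 114 CPM in the pLV-Exo-Wnt5a libraries. All Exo libraries lay below all Con libraries, and the pLV-Exo-Wnt5a libraries overlapped with both. Exo against Con gave a log2FC of -0.30 (standard error 0.09, 95% interval -0.50 to -0.09, Q = 0.265), and pLV-Exo-Wnt5a against Exo gave 0.16 (95% interval -0.0078 to 0.32). Notch1, the main receptor that maintains neural progenitors, was measured at 456, 408 and 402 CPM in the Con libraries, 409, 335 and 384 CPM in the Exo libraries and 426, 380.3 and 467 CPM in the pLV-Exo-Wnt5a libraries. Its groups overlapped in each comparison. The log2FC was -0.18 (95% interval -0.38 to 0.03) in Exo against Con. It was 0.19 (95% interval -0.003 to 0.38) between pLV-Exo-Wnt5a and Exo, and 0.00052 (95% interval -0.21 to 0.21) between pLV-Exo-Wnt5a and Con. Single libraries moved these values: the first was -0.11 without Exo replicate 2 and -0.12 without Con replicate 1, and the second was 0.11 without Exo replicate 2 or pLV-Exo-Wnt5a replicate 3 and 0.26 when pLV-Exo-Wnt5a replicate 2 was left out. The order of the group means was Con, pLV-Exo-Wnt5a and Exo for Notch2 and Notch3, and for Notch1 the first 2 differed by less than their spread, at 422 ± 29.7 CPM and 425 ± 43.5 CPM, above 376 ± 37.5 CPM in Exo (SD, n = 3 each).

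**Figure D1:**
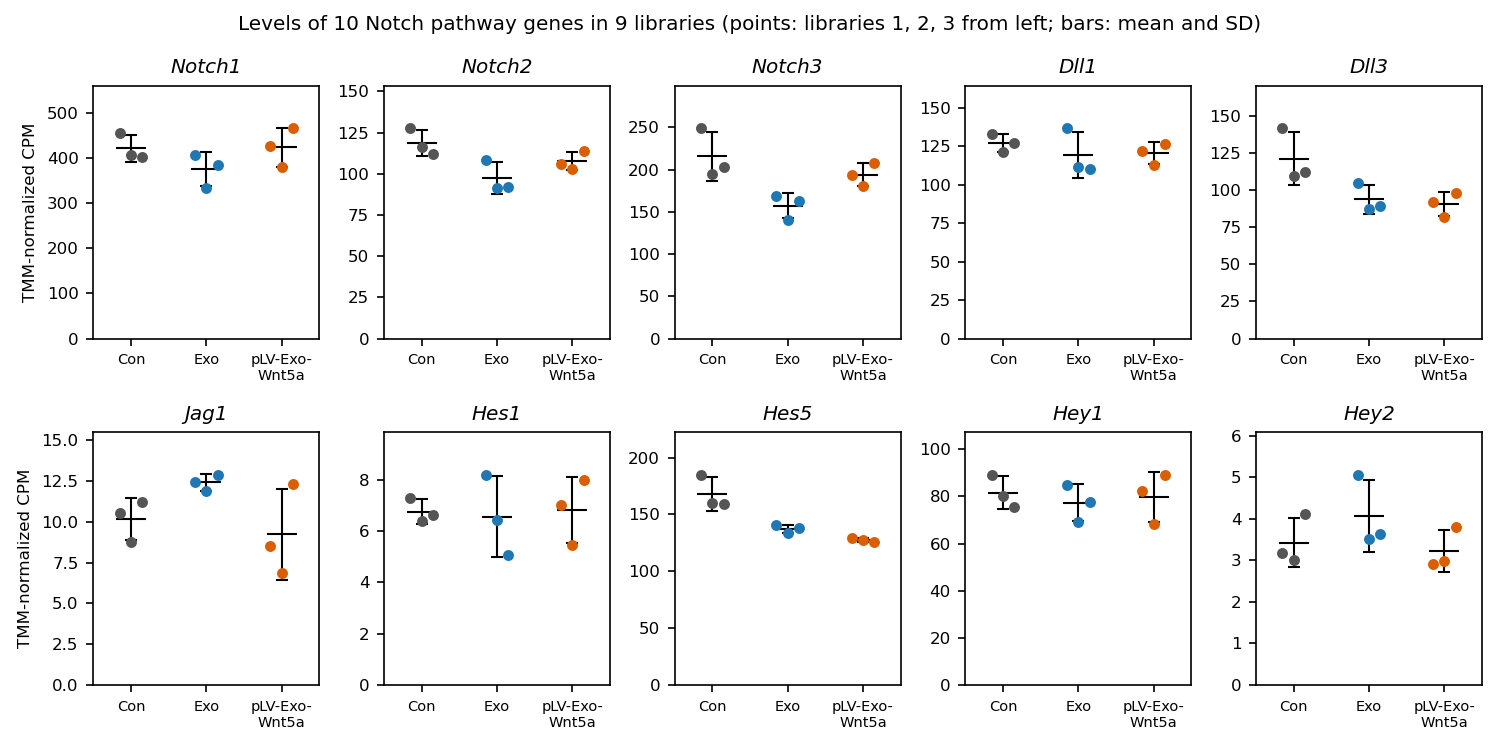
TMM-normalized CPM (linear axes from 0) of the 10 genes in the 3 libraries of each group, with each library as a point and the mean and SD as bars. The Exo points of Notch3 lie between 140.2 and 168 CPM, below all others, and the Con points of Hes5 lie between 159 and 185 CPM, above all others.

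Among the ligands, Dll3, an atypical ligand that acts inside the cell that makes it and does not activate receptors on neighbours, stood apart in the Con group. It was measured at 142, 109 and 112 CPM in the Con libraries, 105, 87.1 and 89.2 CPM in the Exo libraries and 91.7, 82.1 and 98.2 CPM in the pLV-Exo-Wnt5a libraries. Both exosome groups lay below all Con libraries and overlapped with each other. Exo against Con gave a log2FC of -0.38 (standard error 0.12, 95% interval -0.64 to -0.12, Q = 0.265), and pLV-Exo-Wnt5a against Con gave a log2FC of -0.43 (standard error 0.12, 95% interval -0.68 to -0.17, Q = 0.392). The difference between the exosome groups was -0.03 (95% interval -0.22 to 0.16). Con replicate 1 was the highest of the 9 libraries, and without it the 2 log2FC against Con were -0.25 (Q = 0.274) for Exo and -0.29 (Q = 0.278) for pLV-Exo-Wnt5a.

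Dll1, a ligand made by newly forming neurons, had overlapping groups throughout. It was measured at 133, 121 and 127 CPM in the Con libraries, 137, 111 and 110.2 CPM in the Exo libraries and 122, 113 and 127 CPM in the pLV-Exo-Wnt5a libraries. Its log2FC lay between -0.10 and 0.03 in the 3 comparisons, with 95% intervals inside -0.31 to 0.21. Jag1, a ligand of progenitors and astrocytes, showed the opposite side from Dll3 in the Exo group. It was measured at 10.5, 8.73 and 11.2 CPM in the Con libraries, 12.5, 11.9 and 12.9 CPM in the Exo libraries and 8.53, 6.87 and 12.3 CPM in the pLV-Exo-Wnt5a libraries. The Exo libraries lay above all Con libraries, pLV-Exo-Wnt5a replicates 1 and 2 lay below all Con and Exo libraries, and pLV-Exo-Wnt5a replicate 3 lay within the Exo range. Exo against Con gave a log2FC of 0.28 (standard error 0.14, 95% interval -0.04 to 0.60, Q = 0.367), and pLV-Exo-Wnt5a against Exo gave a log2FC of -0.41 (standard error 0.19, 95% interval -0.82 to 0.0029, Q = 0.422). The second value was -0.68 (Q = 0.110) without pLV-Exo-Wnt5a replicate 3 and -0.24 (Q = 0.747) without pLV-Exo-Wnt5a replicate 2.

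Of the target genes, Hes5, a direct Notch target in neural progenitors, showed the clearest difference between the groups with and without exosomes. It was measured at 185, 160.2 and 159 CPM in the Con libraries, 140.3, 133 and 138 CPM in the Exo libraries and 129.6, 127 and 126 CPM in the pLV-Exo-Wnt5a libraries. The 3 groups did not overlap in any pair, in the order Con, Exo and pLV-Exo-Wnt5a, with means of 168 ± 14.7 CPM, 137 ± 3.57 CPM and 128 ± 1.79 CPM (SD, n = 3 each). Exo against Con gave a log2FC of -0.30 (standard error 0.08, 95% interval -0.49 to -0.12, Q = 0.265), and pLV-Exo-Wnt5a against Con gave a log2FC of -0.41 (standard error 0.09, 95% interval -0.60 to -0.21, Q = 0.224), the smallest p of the 10 genes in any comparison. The step from Exo to pLV-Exo-Wnt5a was -0.09 (95% interval -0.21 to 0.02), which included 0. With DESeq2 the difference between pLV-Exo-Wnt5a and Con passed (adjusted p = 0.0299 on 6 libraries and 0.00191 on 9). Con replicate 1 was again the highest library, and without it the log2FC were -0.22 (Q = 0.196) for Exo against Con and -0.32 (Q = 0.0947) for pLV-Exo-Wnt5a against Con.

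Hes1, the target that responds to Notch in many tissues and also to other signals, did not show this order. It was measured at 7.29, 6.37 and 6.61 CPM in the Con libraries, 8.19, 6.44 and 5.05 CPM in the Exo libraries and 7.02, 5.44 and 7.97 CPM in the pLV-Exo-Wnt5a libraries. The Con libraries lay within the range of both other groups, and the largest and smallest values were both in the Exo group. The log2FC against Con was -0.05 (95% interval -0.48 to 0.38) for Exo and 0.0043 (95% interval -0.40 to 0.41) for pLV-Exo-Wnt5a. The interval for Exo included the fitted value of Hes5 in that comparison, and the interval for pLV-Exo-Wnt5a ended just above that of Hes5. Both genes hold 2 sites in the promoter windows printed above, and the difference between the genes was not tested.

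Hey1, a related repressor found in progenitors and vessels, was measured at 89.3, 80.0 and 75.5 CPM in the Con libraries, 84.8, 69.4 and 77.8 CPM in the Exo libraries and 82.2, 68.4 and 89.0 CPM in the pLV-Exo-Wnt5a libraries. Hey2, known for its roles in heart and vessels, was measured at 3.17, 3.01 and 4.11 CPM in the Con libraries, 5.07, 3.52 and 3.64 CPM in the Exo libraries and 2.90, 2.98 and 3.80 CPM in the pLV-Exo-Wnt5a libraries. Both genes had overlapping groups in each comparison. Hey1 had log2FC between -0.09 and 0.06 with 95% intervals inside -0.31 to 0.28. For Hey2, at a lower depth, the intervals ran from -0.78 to 0.73. Endothelial cells also use these genes. Of their 8 listed markers 7 were in the table and summed to 5.24 to 6.94 CPM in Con, 4.80 to 8.30 in Exo and 4.24 to 7.27 in pLV-Exo-Wnt5a. Kdr, which gave most of this sum, had 3.77 to 7.60 CPM and Pecam1 0.124 to 0.557 CPM, with counts in all 9 libraries, while Cdh5 was at 0 in 8, Tie1 in 7, Cldn5 and Emcn in 6 and Flt1 in 3 of them. The part of these cells in the values of Hey1 and Hey2 was not tested.

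**Figure D2:**
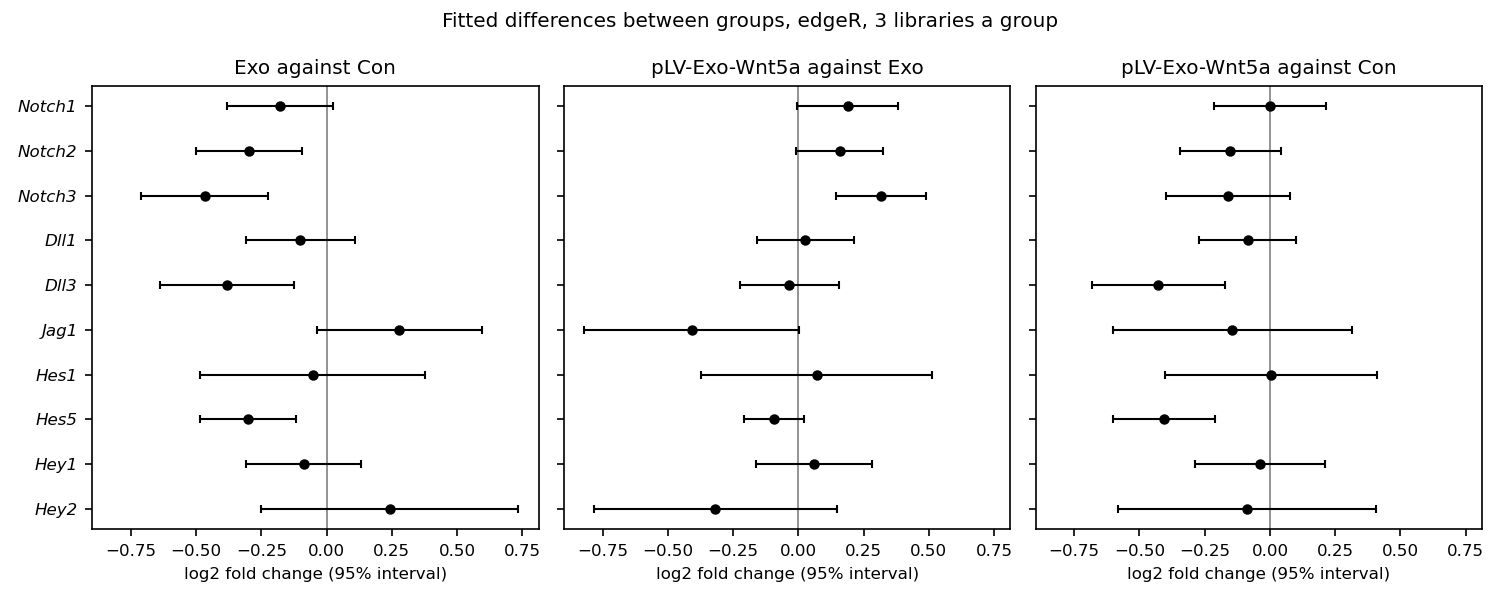
Fitted log2 fold changes of the 10 genes in the 3 comparisons, with 95% intervals from edgeR. In Exo against Con the intervals of Notch2, Notch3, Dll3 and Hes5 lie below 0, in pLV-Exo-Wnt5a against Exo that of Notch3 lies above 0, and in pLV-Exo-Wnt5a against Con those of Dll3 and Hes5 lie below 0; the intervals are not adjusted for the number of genes.

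Counted over the 10 genes, all of which passed the filter on low counts, 8 were lower and 2 higher in Exo than in Con, with a median log2FC of -0.14, against 0.002 over the 15070 genes tested. With edgeR, 0 of the 10 passed Q of 0.05, where 0.00664% of all genes did. With DESeq2 on the same libraries 1 passed (Notch3), where 211 of 15069 genes did. At an unadjusted p under 0.05, 4 were lower and 0 higher, where 6.01% of all genes were lower and 8.92% higher. The libraries did not overlap for 4 lower genes and 1 higher gene, against 12.4% and 10.9% of all genes.

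Between pLV-Exo-Wnt5a and Exo, 6 of the 10 were higher and 4 lower, with a median log2FC of 0.04, against 0.005 over 15132 genes. In edgeR 0 passed Q of 0.05 (0.436% of all genes did), and with DESeq2 1 passed, Notch3 again (2.72% of all genes). At an unadjusted p under 0.05, 1 gene was higher and 0 lower, where 5.07% of all genes were higher and 6.91% lower. The libraries did not overlap for 1 higher gene (Notch3) and 1 lower gene (Hes5), against 7.50% and 8.90% of all genes. Against Con, the pLV-Exo-Wnt5a group had 8 of the 10 lower and 2 higher, with a median of -0.12, against 0.004 over 15089 genes. Here edgeR called 0 (0.0862% of all genes), DESeq2 called 1 (Hes5, with 0.477% of all genes called), and 2 genes, Dll3 and Hes5, were lower at an unadjusted p under 0.05, where 4.15% of all genes were lower and 4.20% higher. The same 2 genes were those whose libraries did not overlap, against 9.41% of all genes on the lower side and 7.67% on the higher side.

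The other Notch pathway genes were taken from a list of 70, of which 65 passed the filter in each comparison. Hes2 and Atoh1 were not analysed here, and Hes3, Neurog1 and Neurod4 had too few counts. In edgeR with this filter and all 6 libraries of a comparison, none of the 65 had Q under 0.05. Some did without the filter or with a library left out, as given below. For Exo against Con, 7 were higher and 12 lower at an unadjusted p under 0.05, where 8.92% of all genes were higher and 6.01% lower. With DESeq2 on 6 libraries 2 passed (211 of all 15069 genes did), and the median log2FC was -0.07. For pLV-Exo-Wnt5a against Exo the counts at that p were 3 higher and 10 lower (5.07% and 6.91% of all genes), with 2 by DESeq2 (2.72%) and a median of 0.02. With Con as the reference, pLV-Exo-Wnt5a had 1 higher and 4 lower (4.20% and 4.15%), with 0 by DESeq2 (0.477%) and a median of -0.02.

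Of the genes listed as further targets, Heyl, Nrarp and Hes6 lay on the side of Hes5. The 4 listed genes that were tested had lower fitted levels in both exosome groups than in Con. Heyl, Nrarp and Hes6 were the 3 at an unadjusted p under 0.05 in each case. At that p 6.01% of all genes were lower in Exo and 4.15% in pLV-Exo-Wnt5a. For Hes7 the direction rested on Con replicate 1, without which its log2FC against Con turned to 0.069 (Exo) and 0.062 (pLV-Exo-Wnt5a), and it also turned to 0.016 for Exo when Exo replicate 2 was left out. With each library left out in turn, from 1 to 3 of the listed genes were lower at an unadjusted p under 0.05 in Exo and from 2 to 3 in pLV-Exo-Wnt5a. The 1 was reached when Exo replicate 3 was out. Heyl, a Hey relative, was measured at 3.17, 1.75 and 1.92 CPM in the Con libraries, 1.09, 1.11 and 1.11 CPM in the Exo libraries and 1.01, 0.301 and 1.11 CPM in the pLV-Exo-Wnt5a libraries. The Con libraries lay above all others. The log2FC was -1.05 (95% interval -1.74 to -0.37) for Exo and -1.49 (95% interval -2.46 to -0.53) for pLV-Exo-Wnt5a against Con (Q = 0.265 and 0.434). Nrarp, a Notch target that dampens the pathway in turn, was measured at 83.1, 76.3 and 77.4 CPM in the Con libraries, 70.0, 67.6 and 61.4 CPM in the Exo libraries and 63.4, 53.2 and 69.4 CPM in the pLV-Exo-Wnt5a libraries. Its Con libraries also lay above all others, with log2FC of -0.26 (95% interval -0.45 to -0.07) and -0.36 (95% interval -0.59 to -0.12) against Con. Hes6, which counteracts Hes1 and was named after its values were seen, had log2FC of -0.27 and -0.28 against Con, and of -0.14 and -0.15 without Con replicate 1. Whether Hes6 answers to Notch in these cells was not tested, so its place among the targets rests on the list.

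**Figure D3:**
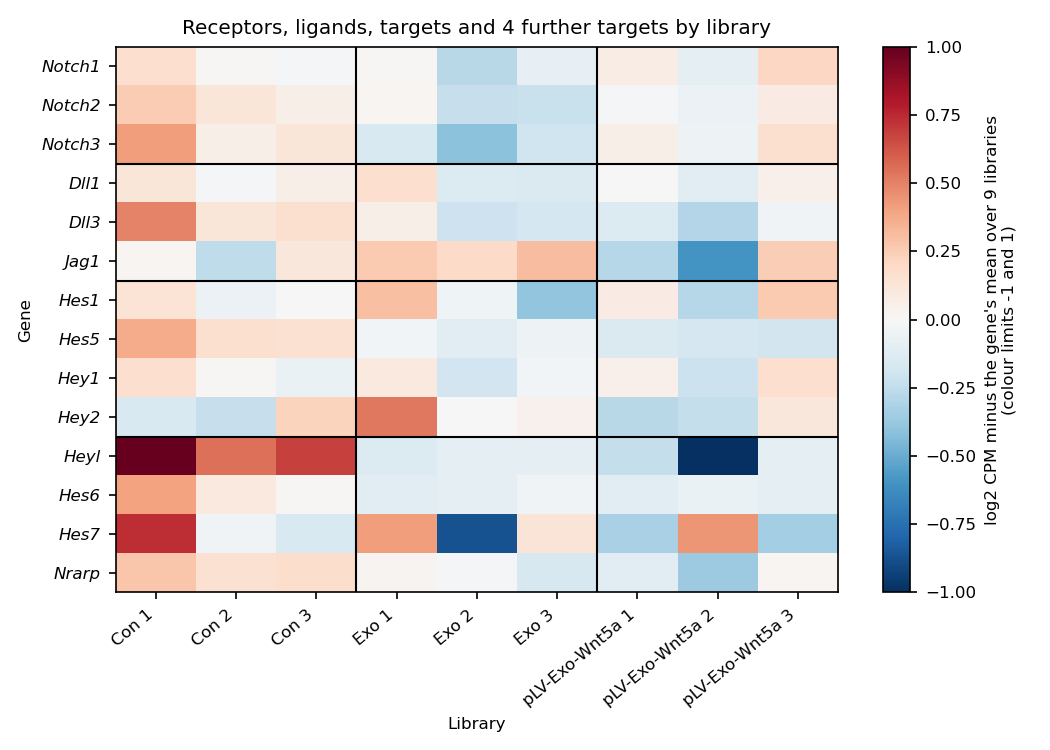
Colour shows log2 CPM minus the mean of the gene over 9 libraries, for the 10 genes and 4 genes listed as further targets (rows) in each library (columns). Black lines separate groups of libraries and roles. Con replicate 1 holds the highest value of Notch2, Notch3, Dll3, Hes5, Hey1, Heyl, Hes6, Hes7 and Nrarp, and Heyl exceeds the colour limits of -1 and 1 in Con replicate 1 and pLV-Exo-Wnt5a replicate 2.

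Other genes had the smallest p of the list. For Exo against Con these were Neurod1, Dner and Heyl. Neurod1, a proneural factor of maturing neurons, was measured at 5.11, 7.29 and 8.86 CPM in the Con libraries, 14.7, 13.3 and 11.8 CPM in the Exo libraries and 13.6, 10.2 and 9.47 CPM in the pLV-Exo-Wnt5a libraries. Its Con libraries lay below all others, and Exo against Con gave a log2FC of 0.90 (standard error 0.20, 95% interval 0.46 to 1.34, Q = 0.265). Dner, a Notch ligand of neurons that lacks the usual receptor-binding domain, had means of 427 ± 30.7 CPM in Con, 572 ± 62.4 CPM in Exo and 485 ± 72.6 CPM in pLV-Exo-Wnt5a (SD, n = 3 each), with a log2FC of 0.41 (95% interval 0.21 to 0.62) for Exo against Con. The 8 neuron markers summed to 2926 to 2947 CPM in Con, 2927 to 3424 in Exo and 2723 to 3477 in pLV-Exo-Wnt5a. Of these, 7 were higher in Exo than in Con, 5 at an unadjusted p under 0.05 (8.92% of all genes), and their part in the values of Neurod1 and Dner was not tested.

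For pLV-Exo-Wnt5a against Exo, the genes were Tle3, Cntn1 and Adam10. Tle3, a corepressor that Hes proteins recruit, had 136.8 ± 6.49 CPM in Con, 119.6 ± 2.42 CPM in Exo and 140.1 ± 8.11 CPM in pLV-Exo-Wnt5a (SD, n = 3 each). Its log2FC was 0.24 (95% interval 0.11 to 0.37). Cntn1, a neuronal adhesion molecule that can bind Notch, had -0.41 (95% interval -0.66 to -0.16), and Adam10, the protease that makes the first cut after ligand binding, had -0.36 (95% interval -0.63 to -0.09), or -0.22 without Exo replicate 1. Means in Con, Exo and pLV-Exo-Wnt5a were 46.4, 62.7 and 46.8 CPM for Cntn1 and 27.0, 38.2 and 29.5 CPM for Adam10. Against Con, pLV-Exo-Wnt5a had log2FC of 0.028 for Tle3, 0.0074 for Cntn1 and 0.13 for Adam10, and for these 3 genes Exo lay further from Con. In pLV-Exo-Wnt5a against Exo, 5 of the 8 neuron markers were lower, 3 at an unadjusted p under 0.05 (6.91% of all genes) and 1, Dcx, at Q under 0.05. Dcx, a protein of young neurons, fell from 98.7 to 117 CPM in the Exo libraries to 66.3 to 76.4 CPM (log2FC -0.60, Q = 0.0113). Its Con libraries lay at 50.5 to 97.9 CPM, on both sides of the pLV-Exo-Wnt5a libraries. The part of neurons in the values of Cntn1 was not tested. For pLV-Exo-Wnt5a against Con they were Heyl, Nrarp and Mfng, a glycosyltransferase that modifies the receptors. Mfng was measured at 45.4, 34.9 and 35.7 CPM in the Con libraries, 31.5, 27.3 and 29.3 CPM in the Exo libraries and 27.5, 28.5 and 31.6 CPM in the pLV-Exo-Wnt5a libraries, with Con above both other groups and a log2FC of -0.41 (95% interval -0.70 to -0.13). For Exo against Con its log2FC was -0.41 (95% interval -0.69 to -0.13). Without Con replicate 1 both values were -0.27.

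By role, the 5 genes of receptor glycosylation were all on the lower side in Exo against Con, with a median log2FC of -0.20 and 3 at an unadjusted p under 0.05 (6.01% of all genes), and all on the higher side in pLV-Exo-Wnt5a against Exo, with a median of 0.09 and 0 at that p; these comparisons share the Exo libraries. The first pattern rested on single libraries: without Con replicate 1, 4 were lower and 1 higher (Pofut1, 0.029), with a median of -0.15 and 2 at that p. Over all 6 libraries left out in turn from 3 to 5 were lower and from 1 to 3 passed that p, with 1 when Con replicate 2, Exo replicate 2 or Exo replicate 3 was out. In the second, from 3 to 5 were higher. The 8 nuclear coactivators had a median of 0.17 in Exo against Con, with 6 higher, and 0 at an unadjusted p under 0.05, and a median of 0.084 without Con replicate 1. The 10 cleavage genes, 9 turnover genes and 12 corepressors went both ways. Of the turnover genes, 8 were higher and 1 lower in pLV-Exo-Wnt5a against Exo, with a median of 0.071 and 0 of the higher ones at that p. With each library left out in turn, from 6 to 8 were higher.

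**Figure D4:**
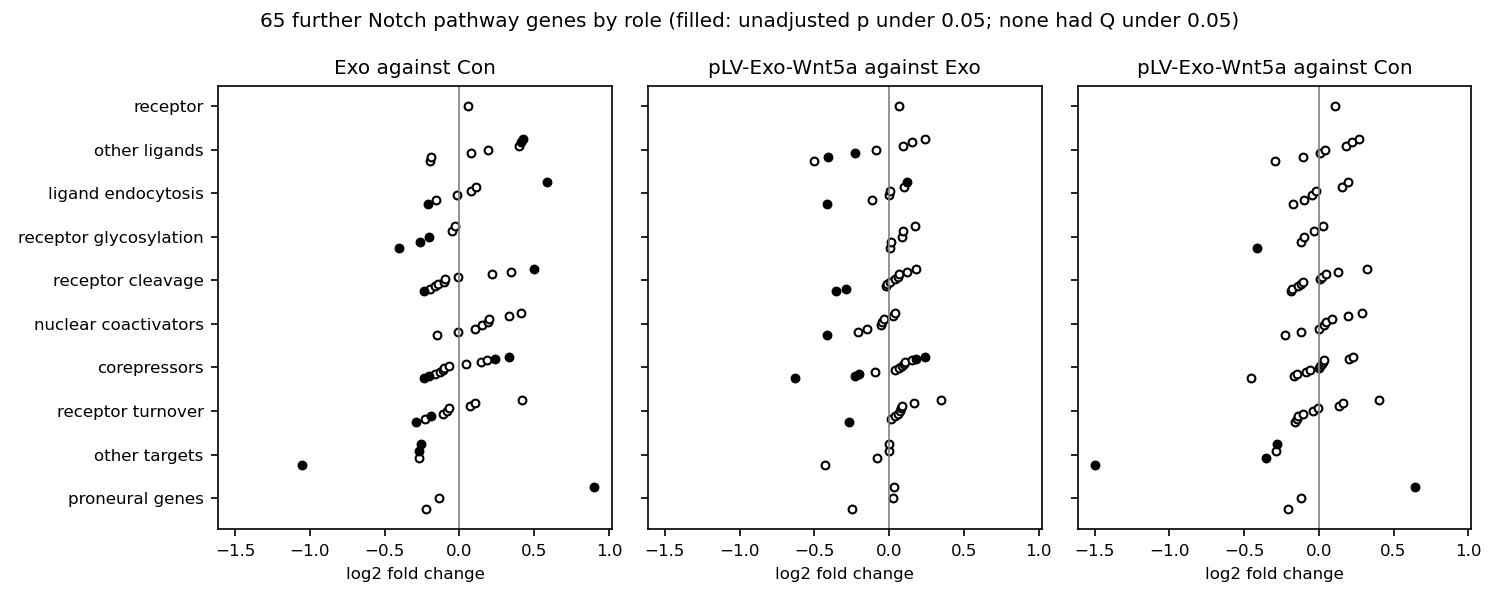
Fitted log2 fold changes of 65 further pathway genes by role in the 3 comparisons, each point a gene, filled where the unadjusted p was under 0.05. The genes listed as targets lie at or below -0.26 in Exo against Con and at or below -0.28 in pLV-Exo-Wnt5a against Con. Hes7 turned to the other side without Con replicate 1, and most other roles lie on both sides of 0.

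Across the 9 libraries, the genes with the pattern most like that of 4 of the genes were found by Pearson's r of log2 CPM over 9241 candidates with a mean of at least 10 CPM. The libraries share groups, depth and composition, the closest of many candidates are always close, and no test was made. For Hes5 they were Brinp2, Alpl and Atp5e (r of 0.984, 0.98 and 0.975), and for Notch1 Erbb2, Asap3 and Aifm2 (r of 0.978, 0.973 and 0.968). For Hes1 they were Lmnb1, Cdca8 and Aurka (r of 0.931, 0.921 and 0.917), and for Jag1 Acot11, Pex7 and Llph (r of 0.915, 0.914 and 0.894). Lmnb1, Cdca8 and Aurka are genes of the nuclear lamina and of dividing cells. The 6 proliferation markers of the fixed list summed to 129 to 138 CPM in Con, 116 to 151 in Exo and 126 to 171 in pLV-Exo-Wnt5a, ranges that overlap as those of Hes1 do.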

How the data were processed

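Gene expression was measured by RNA-seq in 9 NSC libraries, 3 per group. What the authors deposited is 1 table of raw counts, whole numbers for each gene and library. The study's methods name HISAT2, and the submitters' processing notes name Bowtie2, RSEM 1.3.1 and DESeq2 1.4.5 without roles; the genome build, annotation and counting settings are not given in the sources used here. Genes carry mouse symbols and NCBI numbers although the cells are described as rat, so the measured loci are not placed on a genome and reads of Hes, Hey and Notch relatives could have been shared. Columns were matched by library name, and 0 columns lacked a sample.

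Genes were kept by filterByExpr, normalized by TMM and tested for each pair of groups (6 libraries) by quasi-likelihood in edgeR 4.0.16 (R 4.3.3), with Benjamini-Hochberg adjustment over all genes (Q). The standard error and 95% interval of a log2FC come from the test statistic. Alternatives were RLE, other filters, DESeq2 1.42.0, all 9 libraries, other thresholds, a replicate block and leaving out each library. The tests were checked on simulated data in which 200 genes changed 2-fold in each comparison. At an adjusted p under 0.05, edgeR recovered 83% to 92.5% of them with 11 to 21 false calls. DESeq2 recovered 87.5% to 94% with 34 to 48 false calls, so its calls are less strict. Changes smaller than 2-fold, as fitted for the 10 genes, were not simulated. The pathway list holds 70 genes; named are the 10 genes, list genes with Q under 0.05, the 3 with the smallest p per comparison, the 3 genes most like Notch1, Jag1, Hes1 and Hes5, and cell type markers. The 10 genes and all lists were chosen with earlier results of these data known. Values of some listed genes are not reported here. Total counts of 32765138 to 40427647 put 3 counts at 0.0727 to 0.0913 CPM.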

Additional observations from a re-analysis of the deposited data

How the results depend on the processing

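Of 390 values of the 10 genes under the alternatives, 353 kept their direction and their side of Q = 0.05, 12 passed Q, and 25 changed sign, 23 of these with a library left out. None of the 25 had passed. Called genes of the 10, with Q under 0.05 and edgeR on 6 libraries, numbered 0 in each comparison. For Exo against Con there were 2 without the filter on low counts (Notch3 and Dll3), 1 with DESeq2 on 6 libraries, 2 with DESeq2 on 9 libraries (Notch3 and Hes5) and 4 at an unadjusted p, and from 0 to 1 with a library left out; the 1 was Notch3 when Con replicate 3 was out. Between pLV-Exo-Wnt5a and Exo there was 1 without the filter, 1 with DESeq2 on 6 libraries (Notch3) and 1 at an unadjusted p. For pLV-Exo-Wnt5a against Con there were 2 without the filter (Dll3 and Hes5), 1 with DESeq2 on 6 or 9 libraries (Hes5) and 2 at an unadjusted p. The 65 other pathway genes gave 2 without the filter, 2 and 3 with DESeq2 on 6 and 9 libraries and 19 at an unadjusted p for Exo against Con, from 0 to 4 with a library left out (4 without Con replicate 3). They gave 1 without the filter, 2 with DESeq2 on 6 libraries and 13 at an unadjusted p for pLV-Exo-Wnt5a against Exo, from 0 to 1 with a library left out (1 without pLV-Exo-Wnt5a replicate 3). For pLV-Exo-Wnt5a against Con they gave 1 without the filter, 1 with DESeq2 on 9 libraries and 5 at an unadjusted p. Calls over all genes also differed between these settings. For Exo against Con they were 0.00664% of all genes with edgeR, 1.93% without the filter, 211 of 15069 genes and 2.74% with DESeq2 on 6 and 9 libraries and 14.9% at an unadjusted p. Between pLV-Exo-Wnt5a and Exo they were 0.436%, 1.71%, 2.72%, 1.16% and 1812 of 15132 genes in the same order, and between pLV-Exo-Wnt5a and Con 0.0862%, 0.372%, 0.477%, 1.09% and 8.35%. Without Con replicate 3, 371 of 15449 genes (2.40%) were called for Exo against Con, and 0 to 7 with any other library out. Without pLV-Exo-Wnt5a replicate 3, 0.272% of all genes were called between pLV-Exo-Wnt5a and Exo. For all of these counts the cause was not tested. RLE, the filter of at least 10 counts, edgeR on 9 libraries and the fold change limit left these counts at 0.

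The pairing by replicate number was checked on the deviations of libraries from their group means. Over 9 pairs of libraries with equal numbers the correlation lay between -0.203 and 0.063. With 3 libraries a group, such correlations cannot show whether libraries with equal numbers were handled together. With the replicate number as a block, 0 of the 10 genes were called in each comparison, and 2 values near 0 changed sign for pLV-Exo-Wnt5a against Con, Notch1 to -0.00105 and Hes1 to -0.00946.

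With a library left out, the log2FC that changed sign ranged from -0.23 to 0.11 for Hes1 in Exo against Con. In pLV-Exo-Wnt5a against Exo they ranged from -0.025 to 0.13 for Dll1, -0.10 to 0.047 for Dll3, -0.084 to 0.25 for Hes1 and -0.034 to 0.16 for Hey1. In pLV-Exo-Wnt5a against Con they ranged from -0.070 to 0.082 for Notch1, -0.40 to 0.036 for Jag1, -0.12 to 0.15 for Hes1, -0.12 to 0.069 for Hey1 and -0.22 to 0.050 for Hey2. Other values that moved by over 1.5 times kept their sign. In Exo against Con these were Notch1 (-0.23 to -0.11), Dll1 (-0.20 to -0.037), Dll3 (-0.46 to -0.25), Jag1 (0.18 to 0.35), Hey1 (-0.15 to -0.017) and Hey2 (0.064 to 0.38). In pLV-Exo-Wnt5a against Exo they were Notch1 (0.11 to 0.26), Jag1 (-0.68 to -0.24) and Hey2 (-0.46 to -0.14), and with Con as the reference Notch2 (-0.20 to -0.087), Notch3 (-0.23 to -0.033) and Dll1 (-0.12 to -0.032). In Exo against Con, Notch2, Notch3, Dll3 and Hes5 kept their direction and an unadjusted p under 0.05 in 6 of 6 such fits.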
